A study of Mus musculus with 12 samples.

Results

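The genes described here are 10 mouse genes, Gse1, Gins2, Ccdc85c, Casz1, Septin9, Bahcc1, Plec, Prex1, Zbtb7a and Pip5k1c, of 21631 protein-coding genes on chromosomes 1 to 19 and X. They were chosen by the covered length of H3K27ac and H3K4me1 peaks around them in these same peak lists. Their covered length is therefore a description and was not tested. Bases of the mm10 build were given to the protein-coding gene whose start or end was closest, up to 100 kb away, and the bases of a gene make up its territory. For each gene the number of covered bases in its territory was counted in kb, and also per Mb covered in the whole list, which is called its share below.

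Both marks were profiled in single cells of C57BL/6 embryos of 6 morphological stages with CoBATCH, where antibodies direct the Tn5 transposase to chromatin that carries a mark. Pre_PS embryos (E6.0) precede the primitive streak. Embryos labelled ES (E6.0 and E6.5), MS (E6.0 and E7.0) and LS (E7.0 and E7.25) carry a streak of growing length. Those labelled OB (E7.25 and E7.5) lack the bud of the allantois, and those labelled EHF (E7.5) have early head folds. Extraembryonic parts had been dissected off at Pre_PS and at the 3 streak stages. For OB and EHF the labels leave this unstated. The cells of a stage are combined in 1 peak list per mark, so there were 12 lists and no replicates, and no difference between stages can be set against a spread between samples. In such a list, fewer cells with a mark and less of the mark per cell cannot be told apart.

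H3K27ac is an acetyl mark found on active promoters and enhancers. H3K4me1 is a methyl mark typical of enhancers, laid down both at active enhancers and at those that are not yet acetylated. Long stretches of H3K27ac are known from clusters of enhancers near genes that control cell identity, and some genes carry active marks along much of their body. The genes described here have varied roles. Gse1 encodes a partner of the LSD1-CoREST chromatin complex, Casz1 a zinc finger transcription factor of heart and vessel development, Bahcc1 a chromatin reader that acts in gene silencing, and Zbtb7a a transcriptional repressor. Plec encodes plectin, which links filaments of the cytoskeleton, Septin9 a filament-forming GTP-binding protein, and Ccdc85c a coiled-coil protein of apical cell junctions. Prex1 encodes an exchange factor that activates Rac, Pip5k1c a kinase that makes the membrane lipid phosphatidylinositol bisphosphate, and Gins2 a subunit of the GINS complex of the replicative helicase.

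Promoter sequences show how start sites within a gene differed in coverage, and 6 of them are printed. In Casz1 and Septin9 they are the first start and an inner start that is poor in CG. Zbtb7a and Prex1 are the genes with the most and the least stable H3K27ac coverage. Each run gives the 250 bases before an annotated start, 5′ to 3′ on the gene's strand, with CG dinucleotides in capitals, from RefSeq on GRCm38.p6, the assembly that mm10 names. RefSeq gave 14 such promoters for 8 of the 10 genes, and Plec and Gins2 are named only. Casz1, Septin9 and Zbtb7a lie on the plus strand and Prex1 on the minus strand.
Casz1 outer start, chr4:148804142-148804391: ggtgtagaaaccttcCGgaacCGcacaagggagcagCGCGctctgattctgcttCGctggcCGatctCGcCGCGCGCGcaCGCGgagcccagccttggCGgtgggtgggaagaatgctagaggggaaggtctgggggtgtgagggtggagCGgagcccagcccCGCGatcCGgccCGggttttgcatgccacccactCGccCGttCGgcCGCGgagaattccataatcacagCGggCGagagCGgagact
Casz1 inner start, chr4:148889097-148889346: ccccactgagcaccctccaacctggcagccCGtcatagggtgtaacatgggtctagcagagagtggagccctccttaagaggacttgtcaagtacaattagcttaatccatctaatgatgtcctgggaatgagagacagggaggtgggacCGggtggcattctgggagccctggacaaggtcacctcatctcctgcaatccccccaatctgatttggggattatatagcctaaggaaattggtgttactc
Septin9 first start, chr11:117199411-117199660: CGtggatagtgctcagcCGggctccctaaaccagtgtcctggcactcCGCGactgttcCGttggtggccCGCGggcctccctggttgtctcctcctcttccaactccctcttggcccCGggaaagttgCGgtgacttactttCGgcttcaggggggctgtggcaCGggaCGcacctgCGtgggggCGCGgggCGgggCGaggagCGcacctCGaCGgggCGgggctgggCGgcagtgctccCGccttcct
Septin9 inner start, chr11:117331465-117331714: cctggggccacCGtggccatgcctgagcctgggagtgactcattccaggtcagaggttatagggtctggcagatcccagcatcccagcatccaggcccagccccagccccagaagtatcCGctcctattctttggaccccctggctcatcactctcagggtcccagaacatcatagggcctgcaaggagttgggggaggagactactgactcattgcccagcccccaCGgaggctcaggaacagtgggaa
Zbtb7a, chr10:81136021-81136270: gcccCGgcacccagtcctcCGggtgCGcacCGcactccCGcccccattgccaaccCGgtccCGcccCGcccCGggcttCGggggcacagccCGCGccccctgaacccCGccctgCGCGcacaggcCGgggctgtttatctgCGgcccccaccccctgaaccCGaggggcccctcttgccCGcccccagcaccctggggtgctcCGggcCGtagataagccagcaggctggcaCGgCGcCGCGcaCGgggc
Prex1, chr2:166713833-166714082: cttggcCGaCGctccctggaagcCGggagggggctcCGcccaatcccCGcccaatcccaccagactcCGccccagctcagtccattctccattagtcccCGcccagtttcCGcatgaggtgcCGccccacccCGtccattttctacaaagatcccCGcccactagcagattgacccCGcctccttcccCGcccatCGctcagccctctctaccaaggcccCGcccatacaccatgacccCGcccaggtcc
The outer Casz1 promoter holds 27 CG and was covered over all 250 bases in 11 of 12 lists, and over 110 bases in the H3K27ac list of Pre_PS. The inner one holds 2 CG and had no covered base in any of the 12 lists. The first Septin9 promoter holds 23 CG and was covered whole in 12 of 12 lists. The printed inner Septin9 promoter holds 3 CG, was whole in 2 lists and had no covered base in 3. Other inner Septin9 promoters, at chr11:117265996-117266245 (18 CG) and chr11:117332063-117332312 (14 CG), were each whole in 11 lists. The promoters of Zbtb7a (26 CG) and Prex1 (16 CG) were whole in all 12 lists.

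Of the 14 promoters, 6 were covered whole in all 12 lists and 6 more in 10 or 11, which leaves the inner start of Casz1 and the CG-poor start of Septin9. In the H3K27ac list of EHF alone, 12 of the 14 were covered whole, and 48.11% of 21045 promoters were. The median number of CG was 18.5 in the 14 promoters and 10 in all. The motif GGGCGG, read on both strands, occurred in 9 of the 14 (64.29%) and in 43.05% of all promoters of this length. CCAAT occurred in 7 (50% against 35.65%) and TATAAA in 0 (against 11.68%). Matches of GGGCGG and CCAAT can share letters. A match is a string of letters and not evidence of binding. Gse1 is listed with 3 starts, all in its final 100.1 kb.

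In both marks, covered length was larger at ES than at Pre_PS for each of the 10 genes. The whole lists grew as well, from 14.26 to 41.43 Mb for H3K27ac and from 23.43 to 49.39 Mb for H3K4me1. How many of all genes rose was not counted. At EHF, 9 of the 10 genes had at least 20 kb of H3K27ac (0.213% of all protein-coding genes did) and 8 had at least 20 kb of H3K4me1 (0.356%). Zbtb7a was the exception for H3K27ac with 17.5 kb, and Zbtb7a and Pip5k1c for H3K4me1 with 17.0 and 19.2 kb. At each of the 5 stages after Pre_PS, 7 genes reached that length in H3K27ac (0.143%) and 8 in H3K4me1 (0.342%). The choice of genes fixes these counts. Depth moved with the first step: the background that the authors' peak caller used at the weakest peaks was 0.0499 fragments at Pre_PS and 4.22 to 6.61 times as high later for H3K27ac, and 0.0144 fragments and 11.4 to 24.1 times as high for H3K4me1. The part of depth in the step was not tested.

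**Figure D1:**
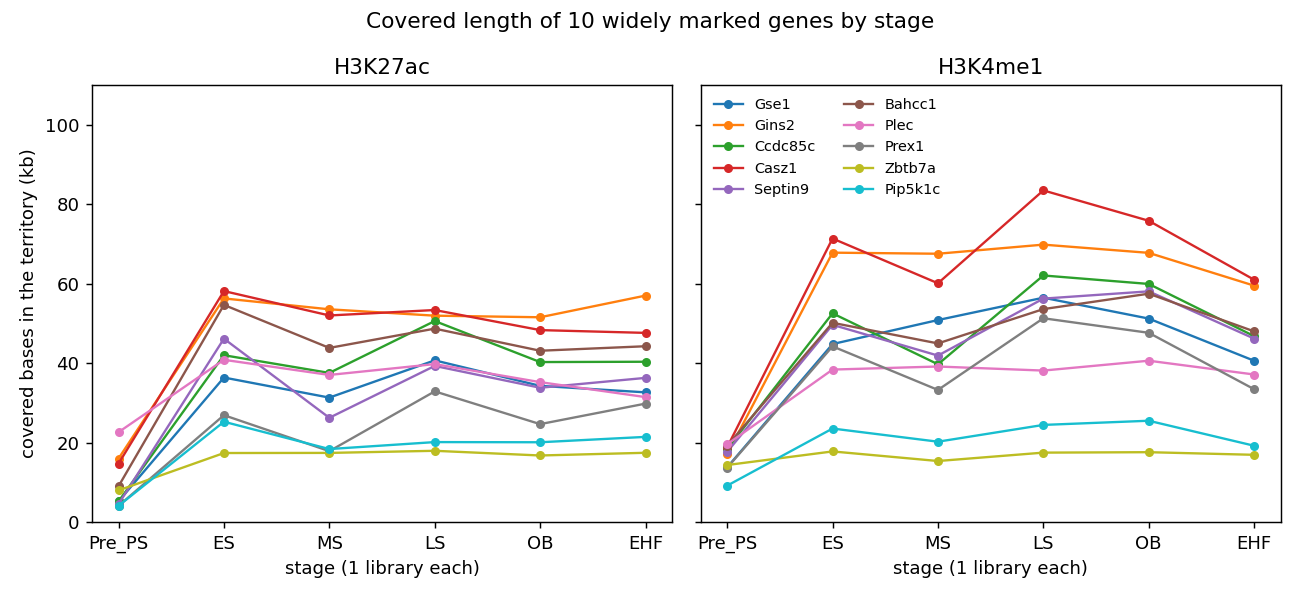
Covered bases in the territory of each gene (kb, y axis) by stage (x axis) for H3K27ac (left) and H3K4me1 (right), with 1 point per gene and list and lines that only join points of a gene. Most genes lie near the bottom at Pre_PS, and Zbtb7a stays between 16.8 and 18.0 kb of H3K27ac at the 5 later stages while Casz1 reaches 83.5 kb of H3K4me1 at LS.

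How far the lengths held when fewer peaks were kept differed among the genes. Peaks were taken in order of the authors' −log10 q until each list covered no more than the smallest list of its mark. Of the H3K27ac bases at EHF, 39.39% remained, and 0 of the 10 genes had 20 kb in place of 9. For H3K4me1, 59.95% of the bases remained and 4 of the 10 had 20 kb in place of 8. Over all protein-coding genes, 1 had 20 kb of H3K27ac in place of 46, and 13 had 20 kb of H3K4me1 in place of 77. Zbtb7a kept all of its bases in both marks. Prex1 kept 5.28% of its H3K27ac bases and Ccdc85c kept 6.66%. Pip5k1c kept 7.43%, although all of its H3K27ac bases lay in the upper 50% of the list by −log10 q. The median share kept by the 10 genes was 18.41%, and it was 20.67% over 1458 genes with at least 5 kb of H3K27ac on average after Pre_PS.

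Gse1 and Gins2 are neighbours, and nearly all of the coverage counted for Gins2 lies inside Gse1. Gse1 spans 352.9 kb (chr8:120228501-120581383) and Gins2 7.81 kb (chr8:120581266-120589075), and they overlap at their ends. Of the covered bases in the Gins2 territory, 93.41 to 97.46% over the 12 lists were inside Gse1. The Gins2 territory held 16.0, 56.3, 53.6, 52.0, 51.6 and 57.0 kb of H3K27ac from Pre_PS to EHF. With every base inside exactly 1 gene given to that gene, Gins2 held 0.758 to 2.658 kb in the 12 lists. The label of a very wide gene therefore fits Gins2 only by the distance rule.

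Counted that way, Gse1 had the longest H3K27ac coverage of all genes at EHF, 130.6 kb. It also led in H3K4me1 with 146.3 kb, ahead of Casz1 with 61.0 kb. By nearest end, Gse1 held 5.26, 36.4, 31.4, 40.7, 34.3 and 32.7 kb of H3K27ac in the order of stages. Its H3K4me1 values were 13.8, 44.8, 50.9, 56.5, 51.2 and 40.6 kb, with the maximum at LS in both marks. The middle 152.8 kb of Gse1 lies over 100 kb from every gene end and belongs to no territory. It held 1.335 kb of H3K27ac at Pre_PS and 35.3 to 46.9 kb at the 5 later stages.

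The end of Gse1 next to Gins2 was the most densely marked. In the final 100.1 kb, H3K27ac covered 15.26% at Pre_PS and 49.67 to 54.79% later. In the first 100 kb it covered 4.39% and then 30.0 to 36.5%, and in the middle 0.874% and then 23.1 to 30.7%. A single H3K27ac peak of 29.7 kb lay in the final part at EHF (chr8:120546925-120576576), the widest of its list, with the authors' fold, their ratio over local background, at 9.46. The widest H3K27ac peak there measured 3.82, 17.95, 17.8, 24.9 and 13.2 kb at the stages before. For H3K4me1 it measured 4.34, 16.0, 14.7, 29.7, 30.6 and 18.9 kb from Pre_PS to EHF.

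**Figure D2:**
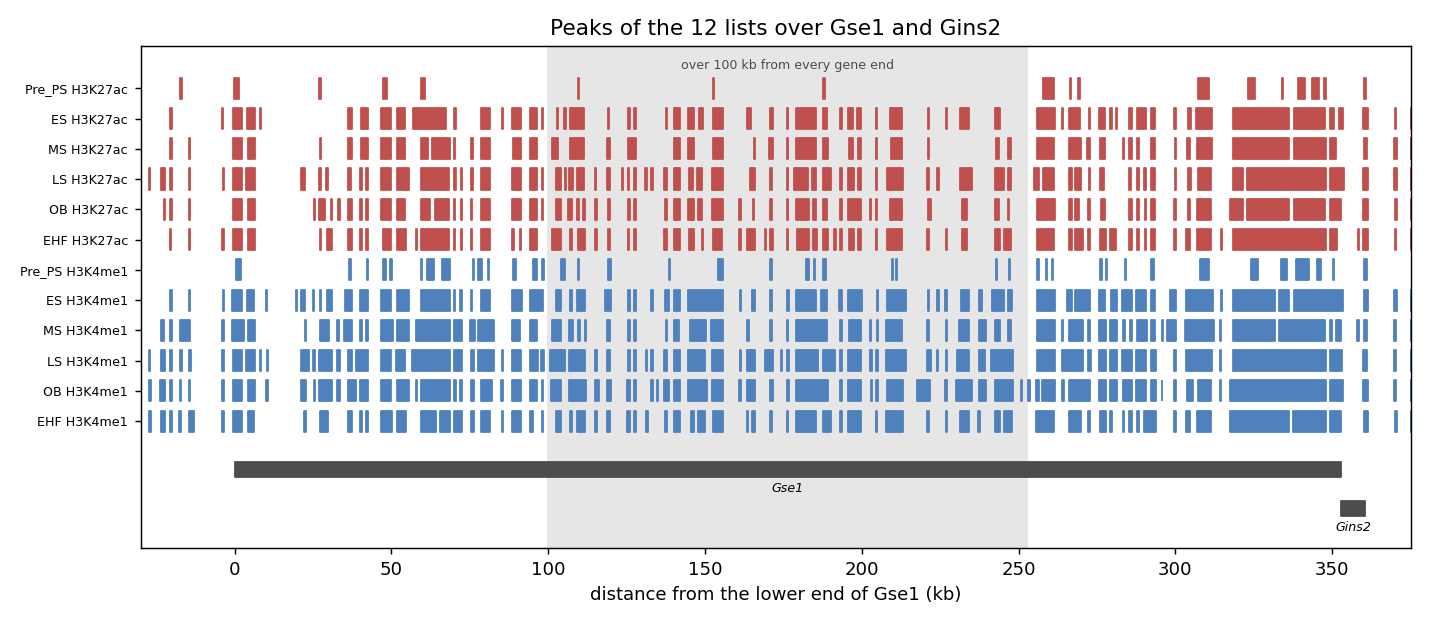
Peaks of the 12 lists (rows, red for H3K27ac and blue for H3K4me1) along Gse1 and Gins2, by distance from the lower end of Gse1 (kb, x axis), with the genes below and the part over 100 kb from every gene end shaded. The widest bars lie in the last part of Gse1, and Gins2 itself is almost bare.

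Among the genes of transcription and chromatin, Casz1, Bahcc1 and Zbtb7a were marked in different ways. Casz1 (chr4:148804366-148954893) was covered in many pieces, 25 to 34 peaks per list after Pre_PS. Its H3K27ac length was 14.8, 58.1, 52.0, 53.4, 48.3 and 47.6 kb from Pre_PS to EHF, highest at ES. Its H3K4me1 length was 18.9, 71.4, 60.1, 83.5, 75.8 and 61.0 kb, highest at LS. It ranked 1 among all genes in H3K4me1 at LS, OB and EHF. The piece that stayed widest for H3K27ac lay near the 3′ end (chr4:148935179-148942431 at EHF, 7.253 kb), and 95.9 to 100% of it was also acetylated at ES, MS, LS and OB.

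Bahcc1 (chr11:120232870-120292297) carried fewer and longer peaks, 11 to 16 per list after Pre_PS. It held 9.05, 54.7, 43.9, 48.7, 43.1 and 44.3 kb of H3K27ac from Pre_PS to EHF. At Pre_PS, 76.2% of the peak length lay in a single peak of 6.90 kb over the start of the gene, rank 10 by width in its list. That start remained the widest peak at MS, LS and OB (10.2 to 11.5 kb), with the authors' fold at 11.2 to 17.4, whereas at ES and EHF a peak inside the gene was wider (13.2 and 9.60 kb). H3K4me1 covered 19.2, 50.2, 45.0, 53.6, 57.5 and 48.0 kb.

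Zbtb7a (chr10:81135225-81152222) was covered along nearly its whole length. From ES to EHF, 1 H3K27ac peak was assigned to it, of 17.4, 17.1, 18.0, 16.8 and 17.5 kb. These peaks covered 91.88 to 98.66% of the gene. At Pre_PS, 3 peaks held 8.02 kb, 47.18% of the gene. H3K4me1 already formed a peak of 11.6 kb at Pre_PS, the widest of that list, and covered 14.4, 17.8, 15.4, 17.5, 17.6 and 17.0 kb over the stages. The authors' fold of the H3K27ac peak was 11.6 to 16.0 at the later stages, against list medians of 6.15 to 6.97.

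Among the genes of the cytoskeleton and of junctions, Plec held the widest peak of any H3K27ac list. Plec (chr15:76170974-76231378) had 22.6, 40.9, 37.1, 39.8, 35.2 and 31.5 kb of H3K27ac from Pre_PS to EHF. At ES a single peak of 38.3 kb (chr15:76171214-76209473) held 94.64% of the peak length. The widest peak then measured 18.8, 24.2, 16.0 and 7.43 kb at MS, LS, OB and EHF, where the same region was split into more peaks. The total changed less than the widest peak did, with 3 peaks at ES and at MS and 7 at EHF. H3K4me1 covered 19.6, 38.4, 39.2, 38.1, 40.6 and 37.2 kb, with a narrower range after Pre_PS.

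Septin9 (chr11:117199661-117362325) was broken up into many peaks, 25 to 42 per list after Pre_PS, and had a widest peak of 4.18 to 8.07 kb. Its H3K27ac length was 4.58, 46.2, 26.3, 39.3, 33.8 and 36.3 kb from Pre_PS to EHF, with the low later value at MS. Its H3K4me1 length was 17.7, 49.7, 41.9, 56.2, 58.1 and 46.2 kb. Septin9 ranked 212 among all genes in H3K27ac at Pre_PS and 5 at ES.

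Ccdc85c (chr12:108203599-108277852) showed 12 to 18 peaks per list after Pre_PS. H3K27ac covered 5.24, 42.0, 37.6, 50.6, 40.3 and 40.4 kb and H3K4me1 18.4, 52.5, 39.7, 62.1, 59.9 and 46.8 kb in the order of stages. The values at LS were the highest in both marks. The widest H3K4me1 peak reached 17.5 kb at LS, while the widest H3K27ac peak of that stage was 11.9 kb.

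Of the signalling genes, Pip5k1c was covered in few wide peaks and Prex1 in many short ones. Pip5k1c (chr10:81292835-81319974) held 4.13, 25.3, 18.4, 20.2, 20.1 and 21.5 kb of H3K27ac from Pre_PS to EHF. Its widest H3K27ac peak was 22.5 kb at ES and 23.0 kb at EHF, and 10.7 to 11.6 kb at MS, LS and OB. The EHF peak (chr10:81307383-81330362) runs past the end of the gene and across the next gene, Cactin, whose own territory of 6.72 kb was covered whole. H3K4me1 covered 9.20, 23.6, 20.3, 24.5, 25.5 and 19.2 kb, and its peak of 30.1 kb at LS was the widest of that list.

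Prex1 (chr2:166566345-166713832) held 4.13, 26.9, 17.9, 32.9, 24.7 and 29.8 kb of H3K27ac. These bases were spread over 15 to 28 peaks after Pre_PS, of which the widest measured 2.59 to 3.23 kb. H3K4me1 covered 13.7, 44.2, 33.3, 51.3, 47.7 and 33.5 kb in 23 to 37 peaks. The mean fold of its H3K27ac peaks, weighted by width, was 5.46 to 6.36 after Pre_PS and lay below the list's median at each of these 5 stages. Prex1 reached its length without wide peaks or high folds.

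**Figure D3:**
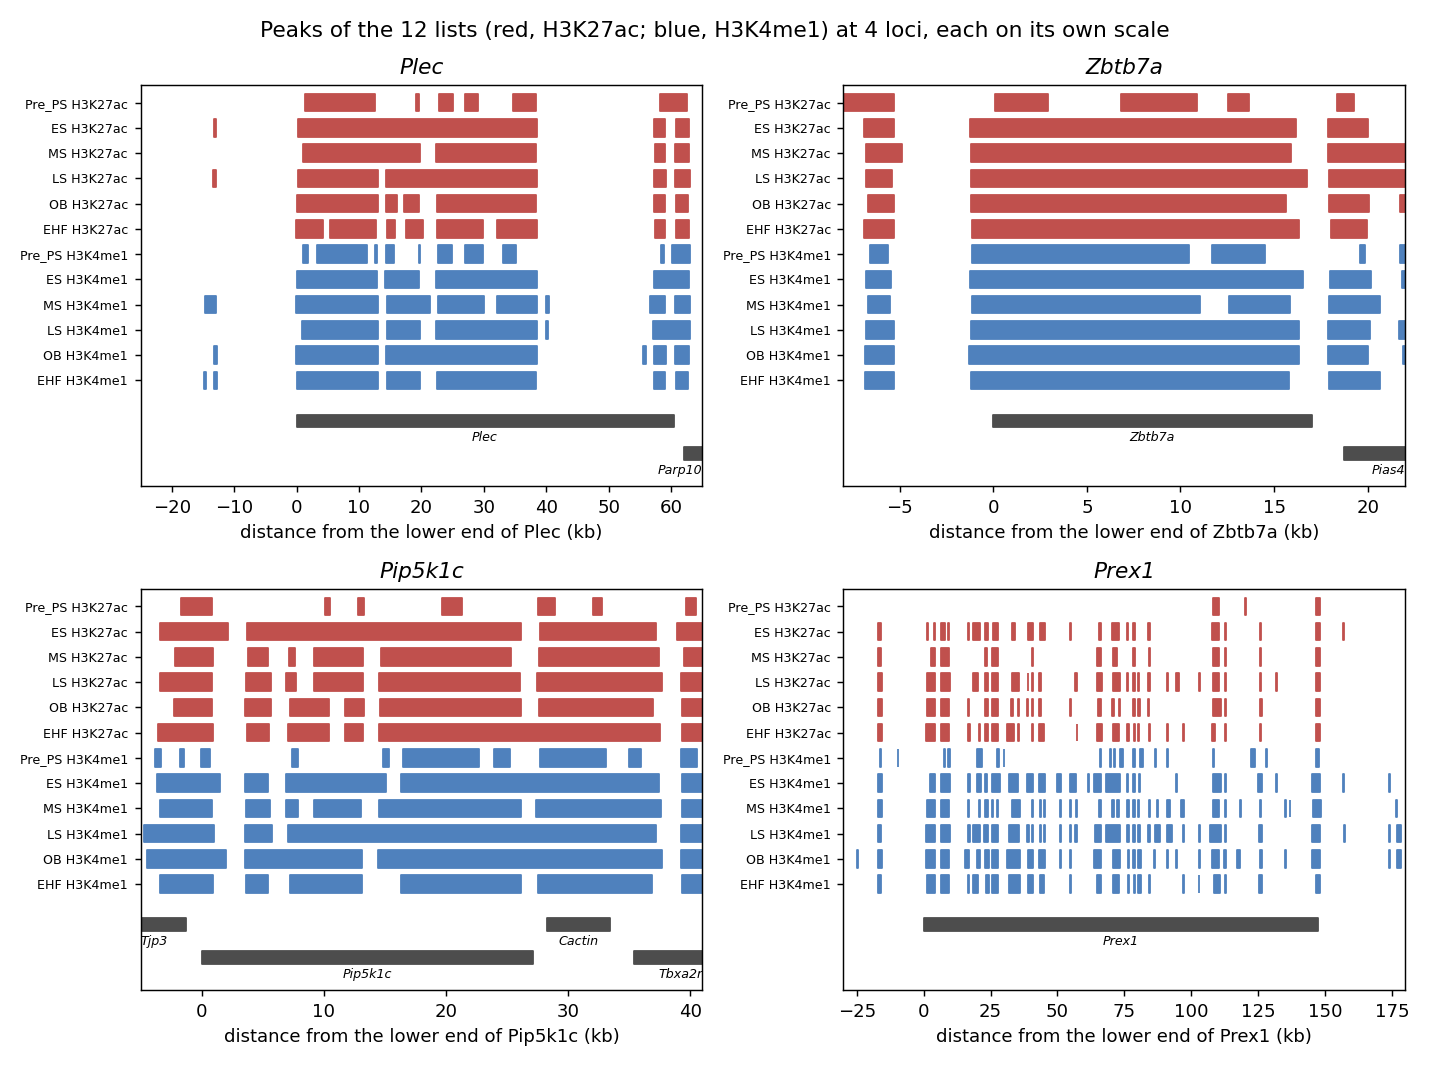
Peaks of the 12 lists (rows, red for H3K27ac and blue for H3K4me1) at Plec, Zbtb7a, Pip5k1c and Prex1, by distance from the lower end of each gene (kb, x axis, own scale per panel), with genes below. Zbtb7a is nearly filled after Pre_PS, and Prex1 shows short separate peaks. The first 38 kb of Plec are mostly covered after Pre_PS, with gaps between several H3K27ac peaks at EHF.

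The widest single peaks concentrated at part of the genes. Of the 10 widest peaks of each list, 120 in all, 40 were assigned to these genes by their midpoints. Plec held 11, the Gins2 territory (inside Gse1) 10, Zbtb7a 10, Pip5k1c 5, Casz1 2, and Ccdc85c and Bahcc1 1 each. Gse1 by nearest end, Septin9 and Prex1 held 0. In 10 of 12 lists the widest peak lay at one of these genes, the exceptions being H3K4me1 at ES (Celsr2) and at MS (Midn). The choice of genes used the lengths covered by these same peaks, so these counts are a description. Among 1434 genes with at least 5 kb of each mark on average after Pre_PS, the median gene had 5 H3K27ac peaks at EHF with 42.14% of their length in the widest. Zbtb7a (100%), Pip5k1c (77.4%) and Gins2 (51.8%) were above that share, and the other 7 genes lay between 10.8% (Prex1) and 27.6% (Gse1).

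Most of the covered bases lay within the genes themselves. Apart from Gins2, H3K27ac bases inside the gene's own body made up 74.91 (Bahcc1) to 98.41% (Plec) of the territory's coverage at EHF. The genes are long, with a median of 67.3 kb against 17.3 kb over all protein-coding genes, and so are their territories (120.3 against 45.7 kb). Among 5810 other genes with a territory of at least 100 kb, H3K27ac at EHF covered a median of 0.745% and at most 29.99% of the territory. Of the 6 described genes with a territory that long, the Gins2 territory (50.16%) and Bahcc1 (34.89%) lay above that maximum, and Gse1 (25.24%), Casz1 (21.95%), Septin9 (12.84%) and Prex1 (10.4%) below it. In the shorter territories of Plec, Ccdc85c, Zbtb7a and Pip5k1c it covered 37.73, 45.66, 75.53 and 75.78%. The choice of genes used these lengths.

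In Gse1, Casz1, Prex1 and Bahcc1 the final 20% of the gene, in the direction of transcription, was the part most covered by H3K27ac at EHF. H3K27ac covered 59.16% of the final 20% of Gse1 and 34.18% of the first 20%. That final part of Gse1 also holds listed promoters, at chr8:120535607-120535856 and chr8:120537159-120537408, so it includes start sites. In Casz1 it covered 60.6% and 20.48%, in Prex1 34.84% and 3.82%, and in Bahcc1 69.41% and 61.44%. The medians of 918 genes of known strand were 19.86% for the final and 20.74% for the first 20%. In H3K4me1 at EHF the final 20% was again the most covered part of Gse1, Casz1 and Prex1. Bahcc1 differed in that mark, with 84.59% of the first and 64.91% of the final 20% covered. For H3K27ac the other 4 genes of known strand differed. Septin9 had its highest value, 39.48%, in the middle 20%. In Zbtb7a the final 20% was the least covered (80% against 100% elsewhere), in Ccdc85c the part before it was highest (70% against 65.4%), and in Pip5k1c both of these parts were covered whole. How often the final part is highest among all genes was not counted. In Plec, ordered by coordinate since its strand was not in the tables used, the lower 20% was covered to 90.17% and the upper 20% to 13.3%.

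At Pre_PS the genes already differed in rank. By H3K27ac length, Plec ranked 1 of all genes, Gins2 3, Casz1 4 and Bahcc1 15, whereas Zbtb7a ranked 34 and the other 5 ranked 134 to 278. Per covered Mb, the H3K27ac share at ES was at least 2 times that at Pre_PS in 6 genes, Gse1, Ccdc85c, Septin9, Bahcc1, Prex1 and Pip5k1c (30% of 1458 genes). Plec and Zbtb7a went the other way in both marks, with a higher share at Pre_PS (35.3% of genes for H3K27ac and 33% for H3K4me1). The H3K27ac share of Plec was 1589 bp per covered Mb at Pre_PS and 986 at ES, and that of Zbtb7a 562 and 420. At Pre_PS, 14.4% of H3K27ac peaks and 67.3% of H3K4me1 peaks lie at the lowest −log10 p of their list.

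Most of the bases marked at Pre_PS were covered at all 5 later stages, except at Prex1. The later lists cover more bases in all, and the same figure over all genes was not counted. All Pre_PS H3K27ac bases of Bahcc1 and Zbtb7a were covered at each of the 5 later stages. The figure was 96.2% for Gins2, 97.1% for Ccdc85c and 92.8% for Pip5k1c, and 72.5 to 86.8% for Gse1, Casz1, Septin9 and Plec. Prex1 was lowest with 44.7% for H3K27ac and 24.4% for H3K4me1. In H3K4me1, Septin9 followed with 53.87% and Bahcc1 with 71.59%, and the others had 74.06 (Gse1) to 94.95% (Pip5k1c). Counted as covered at any later stage, Prex1 had 86.14% for H3K27ac, where Gse1 was lowest with 85.5%. For H3K4me1 Prex1 was lowest by that count too, with 60.45%.

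Among the later stages, the share of bases marked throughout differed widely between the genes. Of the bases with H3K27ac at any of the 5 later stages, 91.22% were covered at all 5 in Zbtb7a, 71.05% in Plec and 65.5% in the Gins2 territory. The values were 63.83% in Bahcc1, 62.7% in Pip5k1c, 48.07% in Casz1, 47% in Ccdc85c and 45.79% in Gse1. Septin9 (27.6%) and Prex1 (22.69%) lay below the lower quartile of 1458 genes, 35.15%, whose median was 48.39%. For H3K4me1 the same genes stood at the extremes, Zbtb7a with 85.99% and Prex1 with 25.29%, around a median of 45.36% over 2075 genes.

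Shares at the late stages OB and EHF were compared with those at ES and MS, which asks whether the coverage moved during gastrulation. Of the 10 genes, 0 passed a 1.2-fold difference of both late from both early lists, in either direction or mark. The percent of all genes that did was 3.09 (higher) and 2.33 (lower) for H3K27ac, and 3.57 and 1.25 for H3K4me1. The median log2 ratio was 0.06 for H3K27ac and 0.12 for H3K4me1 in the 10 genes, and 0.06 and 0.07 in 1434 genes. The late and early lists did not overlap in H3K27ac share for 3 genes that were higher late (22.9% of genes), Gse1, Ccdc85c and Prex1, and for 2 that were lower late (13.2%), Casz1 and Plec. In H3K4me1, 5 genes were higher late without overlap (22.7%), Ccdc85c, Casz1, Septin9, Bahcc1 and Pip5k1c, and 0 were lower (9.4%). Depth moved too: the H3K4me1 background at the weakest peaks was 0.185 at ES, 0.164 at MS, 0.329 at OB and 0.240 at EHF. For H3K27ac it was 0.262, 0.211, 0.230 and 0.289 in the same order. The part of depth in these differences was not tested.

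Ccdc85c had higher late values in both marks, but did not pass the 1.2-fold rule in either. Its H3K27ac share was 1014 and 1046 bp per covered Mb in the ES and MS lists, and 1107 and 1115 in the OB and EHF lists (log2 ratio 0.11). Its H3K4me1 share was 1064 and 898 early and 1176 and 1198 late (0.28). Casz1 was the only gene of the 10 without overlap in opposite directions (3.77% of 1434 genes). Its H3K27ac share was 1404 and 1448 early and 1328 and 1316 late, and its H3K4me1 share 1445 and 1358 early and 1488 and 1561 late. Prex1 had the largest H3K27ac log2 ratio, 0.39, from 650 and 498 early to 678 and 824 late. With the same covered Mb from each list the ratio of Prex1 turned to -0.95 and that of Plec from -0.13 to 0.47, and in the upper 50% of peaks that of Casz1 turned from -0.11 to 0.19. The 5 genes higher late in H3K4me1 had a ratio above 0 under each other setting listed in the closing section.

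**Figure D4:**
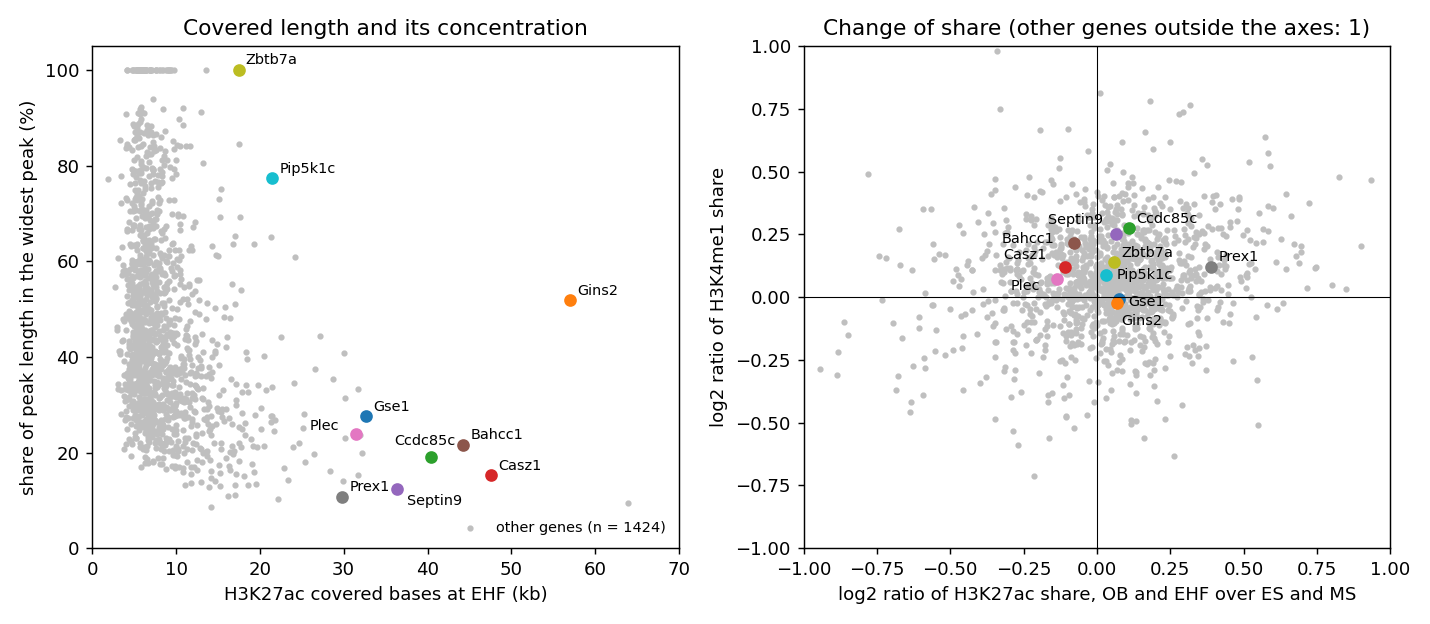
Left, H3K27ac covered bases at EHF (kb, x axis) against the share of peak length in the widest peak (%, y axis); right, log2 ratio of mean share at OB and EHF over ES and MS for H3K27ac (x axis) and H3K4me1 (y axis). Grey points are 1424 other genes and labelled points the 10 genes, which lie to the right of most grey points on the left and inside the grey cloud on the right.

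The 2 marks overlapped strongly over these genes after Pre_PS. The choice of genes used the covered lengths of both marks, from which this overlap is counted, so the overlap is a description. The median percent of H3K27ac bases that also lay under H3K4me1 was 57.15 at Pre_PS, 87.75 at ES, 88.09 at MS, 95.47 at LS, 99.15 at OB and 92.55 at EHF. Over all genes with at least 5 kb of H3K27ac the medians were 52.42, 87.78, 89.18, 95.24, 97.35 and 89.53, so the 10 genes followed the course of the others. At EHF the values ran from 78.3% in Prex1 to 96.93% in Plec. Read the other way, the percent of H3K4me1 bases under H3K27ac was lowest in Prex1 at 5 of 6 stages, with 48.23% at OB, and reached 99.82% in Zbtb7a at EHF.

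The flanking genes held 0.337 to 16.0 kb of H3K27ac at EHF, the most at Sec14l1 beside Septin9. As a percent of the territory, some neighbours were covered as much as the gene beside them: Cactin 100% and Tjp3 63.8% beside Pip5k1c (75.78%), Parp10 35.74% beside Plec (37.73%), Cibar2 25.63% beside Gse1 (25.24%) and Sec14l1 12.46% beside Septin9 (12.84%). Beside Zbtb7a (75.53%), Map2k2 had 16.36% and Pias4 25.09%. Long coverage was rare among relatives, as it was among all protein-coding genes. Over all of these, 0.213% had at least 20 kb of H3K27ac at EHF and 0.356% of H3K4me1. Of 48 relatives and partners, among them 10 genes of the LSD1-CoREST complex, 10 of the replicative helicase, 12 septins and 6 plakins, only Tnrc18, the paralogue of Bahcc1, had at least 20 kb at EHF, with 31.7 kb of H3K27ac and 28.3 kb of H3K4me1. Next by H3K27ac came Zbtb7b, a relative of Zbtb7a, with 14.3 kb, and Evpl, which encodes the plakin envoplakin, with 11.3 kb. In H3K4me1 the next were Zbtb7b (14.9 kb), Zbtb7c (13.0 kb) and Evpl (12.3 kb). The median of the 48 was 1.70 kb of H3K27ac, and 0.981 kb over all protein-coding genes. The 12 other septins had a median of 1.31 kb against 36.3 kb in Septin9, and the longest plakin gene, Dst, had 2.03 kb over a body of 400.8 kb.

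Genes outside the 10 with long H3K27ac coverage at EHF included Bcor (32.2 kb), Ahdc1 (32.0 kb), Zfpm1 (31.7 kb) and Tnrc18 (31.7 kb). Bcor encodes a corepressor and Zfpm1 a cofactor of GATA factors. In H3K4me1 they included Zfpm1 (36.6 kb), Lmx1b (36.4 kb), Bcor (35.9 kb) and Ahdc1 (33.2 kb). Likeness was measured as the Euclidean distance of log2(share + 1) over the 12 libraries, among 350 genes with at least 10 kb on average. The closest pairs were Plec with Bcor (0.58), Zbtb7a with Cic (0.61) and Pip5k1c with Pcdh1 (0.64). The most distant nearest gene was that of Ccdc85c, Itpr3 (1.73).

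The lists matched the tissue label in their markers. The 4 epiblast genes had coverage in all 12 lists, and the 5 streak genes too except Tbx6 in H3K27ac at Pre_PS. The liver gene Alb and the yolk sac gene Afp had 0 covered bases in all 12 lists, and Ttr had some only in H3K4me1 at LS. The 4 extraembryonic genes summed to 0 to 2.92 kb per list.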

How the data were processed

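Each of the 12 deposited files is a broad peak list of 1 mark at 1 stage. Bowtie2, Picard, MACS2, deepTools and the mm10 build are named in the submitters' processing notes; versions, settings and cell numbers were not given in the sources used here. A peak's deposited fold is a ratio over local background made by the authors, compared only within a list. Peaks were ranked by the authors' −log10 q, and floor peaks found from the authors' −log10 p. The authors' score, 10 times −log10 q, was left unused.

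The H3K27ac lists held 13398 to 39635 peaks over 14.3 to 42.1 Mb and the H3K4me1 lists 35646 to 47849 over 23.4 to 51.3 Mb on chromosomes 1 to 19 and X, the smallest coverage being that of Pre_PS in both marks. Read depth is unknown. The background at the weakest peaks was solved from their p and fold (tested on simulated data, 157 of 160 had a single solution), and peaks at the lowest value are called floor peaks. Gene ends came from RefSeq for GRCm38.p6. Peaks were given to genes by midpoint and bases by nearest end, within 100 kb. Shares were compared over genes with a mean of at least 5 kb at the 5 later stages. No p-value was computed, since each group is 1 library. Tested on simulated data for the 1.2-fold comparison over 1500 genes, 199 of 200 genes raised 1.5 times were called. The spread between the simulated lists was set small. Between the lists of ES and MS, H3K27ac shares were close in Gse1 (878.5 and 873) and far apart in Septin9 (1114 and 731.7). The simulation therefore cannot tell how many such changes would be called in these lists.

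The genes, lists and thresholds were chosen with earlier results of these data known. Named outside the 10, apart from items not reported here, were the 5 longest others at EHF per mark, the gene most like each, flanking genes, and relatives and partners; Celsr2, Midn and Dst were named after their values were seen. Alternatives were peaks without floor peaks, the upper 50% of each list by −log10 q, the same covered Mb from each list, 50 kb territories, bases inside 1 gene given to that gene, and other thresholds. Python 3.11.15, numpy 2.4.6, pandas 2.3.3 and matplotlib 3.10.9 were used.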

Additional observations from a re-analysis of the deposited data

Results flagged for a closer look

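Casz1, which encodes a zinc finger transcription factor, moved in opposite directions in the 2 marks between ES and MS and OB and EHF. The log2 ratio of its mean share was -0.11 for H3K27ac and 0.12 for H3K4me1, and in each mark both late lists lay outside the range of both early lists. The difference between the marks was not tested, since there is 1 library per stage and mark. In H3K4me1 the background at the weakest peaks was also higher late (0.329 and 0.240) than early (0.185 and 0.164). The part of depth was not tested. In the upper 50% of peaks the H3K27ac ratio was 0.19.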

How the results depend on the processing

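No paired analysis was possible because each stage and mark has 1 library. With the same covered Mb from each list, 0 of the 10 genes had at least 20 kb of H3K27ac at EHF and 4 of H3K4me1. Genes past 1.2-fold higher late in H3K27ac numbered 2 in the upper 50% of peaks and 1 with the same covered Mb. In H3K4me1, 2 were higher and 1 lower with the same covered Mb, and 3 were higher at 1.1-fold. The median percent of H3K27ac under H3K4me1 was 88.48 in the upper 50% of peaks, 98.3 with the same covered Mb and 93.67 within 50 kb, and 57.15, 87.75, 88.09, 95.47 and 99.15 at Pre_PS, ES, MS, LS and OB. The other alternatives left the counts within 1.5 times. Of the 10 log2 ratios per mark, the same covered Mb kept 6 directions for H3K27ac and 7 for H3K4me1, the upper 50% of peaks 8 and 8, 50 kb territories 9 and 8, giving bases to the gene that holds them 10 and 9, and leaving out floor peaks 10 and 10. The cause was not tested. Without replicates, shallow Pre_PS lists limit every comparison with that stage.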
